A study of Mus musculus with 6 samples.

Results

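Metalloproteinases cut the matrix around a cell and proteins on its surface, and TIMPs block them. The genes described here were 4 inhibitors and 6 proteases, listed by name: *Timp1*, *Timp2*, *Timp3*, *Reck*, *Mmp2*, *Mmp3*, *Mmp14*, *Adam10*, *Adam17* and *Adamts1*. They were chosen by their values in the comparisons of HG, rFGF1 WT and rFGF1 ΔHBS in these same libraries. Their levels, differences, intervals and calls in those comparisons are therefore given as a description only. No such interval or call counts as a test of these genes, and nothing is read from how many of them passed. All 10 were found among the 24469 loci of the table. Of these, 9 reached a mean of 1 FPKM over the libraries, the limit for testing, as did 10562 of all loci, and *Mmp3* did not. FPKM are fragment numbers scaled to transcript length and to the mapped fragments of the library, so levels can be set side by side between genes.

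RNA-Seq was done on MPCs, an immortalized mouse podocyte line, in 3 groups of 2 libraries. Every culture was expanded at 33 °C in medium with 5.5 mM glucose and interferon gamma at 50 U/mL. It was then differentiated for 10 days at 37 °C without interferon gamma. Starvation of serum for 12 h followed, and then HG (25 mM glucose) for 12 h. The labels name D-mannitol as the control for osmolarity, and none of the 6 libraries is labelled as that control. One group received HG with no FGF1, and the others were first given 100 ng/mL of rFGF1 WT or of rFGF1 ΔHBS for 1 h. rFGF1 ΔHBS is the mutant of FGF1 altered at its heparan sulfate binding site. The HG group had no pretreatment, cultures at normal glucose were not analysed here, and the response to HG itself was therefore not measured. The labels number the libraries of a group but do not say that they came from separate cultures, so p-values measure the spread between these libraries, which may be technical. Both comparisons with HG use the same 2 HG libraries, and both comparisons under rFGF1 WT the same 2 rFGF1 WT libraries. FPKM do not hold read totals. Low values of loci with a single transcript, compared between libraries, placed the most common step at relative depths of 0.973 to 1.01 of the first HG library, at 7.48% to 9% of the 1016 to 1124 low loci compared.

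The podocyte label was checked against 14 markers, of which *Tcf21* had no locus under that symbol. Of the rest, 7 had a mean of at least 1 FPKM, namely *Vim*, *Actn4*, *Nes*, *Cd2ap*, *Kirrel*, *Podxl* and *Synpo*, with *Vim* the most abundant at 156.8 FPKM. Defining markers were low: *Nphs1*, the nephrin of the slit diaphragm, lay between 0.618 and 0.942 FPKM, and *Wt1*, a podocyte transcription factor, between 0.0104 and 0.0731. The name podocyte is therefore used here only as the labels give it. The summed level of the podocyte list was 376 and 364 FPKM in HG, 481 and 475 under rFGF1 WT, and 452 and 469 under rFGF1 ΔHBS. Its genes did not all go the way of the sum. *Nes*, an intermediate filament gene, had means of 42.5, 79.8 and 83.9 FPKM in HG, rFGF1 WT and rFGF1 ΔHBS and *Kirrel*, a slit diaphragm gene, 16.3, 40.2 and 31.0, while *Synpo*, which codes for an actin-binding protein of podocyte foot processes, had 9.91, 4.73 and 5.83, *Podxl* 17.1, 15.6 and 15.3, and *Wt1* 0.0624, 0.0328 and 0.0177. Of the other lists, tubular genes summed to 159 and 158 FPKM in HG, 116 and 119 under rFGF1 WT and 109 and 122 under rFGF1 ΔHBS. They were led by *Cdh16* at 77.4 FPKM with 3 of the 7 genes in the table at or above 1, while *Umod* had no locus under that symbol. Macrophage genes summed to 62.9 and 61.1, 69.8 and 67.0, and 71.2 and 71.2, with 2 of 8 at or above 1. The sum was carried by the locus of *Cd68*, at a mean of 61.2, which also holds *Eif4a1*, so its level cannot be assigned to *Cd68* alone. *Csf1r*, the other gene at or above 1, stood at 9.56 and 10.7 FPKM in HG, 3.21 and 3.68 under rFGF1 WT and 3.94 and 3.76 under rFGF1 ΔHBS, below HG in all 4 treated libraries, while *Ptprc* was at most 0.0548 and *Adgre1* at most 0.0136. Mesangial or pericyte genes, with 3 of 8 at or above 1, summed to 45.3 and 47.8 FPKM in HG, 48.3 and 46.2 under rFGF1 WT and 43.5 and 45.2 under rFGF1 ΔHBS. Within this sum *Pdgfrb*, the most abundant, had means of 32.2, 26.9 and 26.8 FPKM and *Acta2* 11.8, 17.2 and 14.4, in the same order of groups, and neither was called against HG. Among all the markers, limma called *Nes* higher with both proteins (adjusted p = 0.00576 and 0.0051). *Kirrel* was called higher under rFGF1 WT (limma adjusted p = 0.0483) and not called under rFGF1 ΔHBS (0.0899). The locus of *Cd68* was called higher with both (limma adjusted p = 0.0496 and 0.0363) and *Csf1r* lower with both, past 2-fold (0.0114 and 0.014). Across all loci, 3.26% were called higher and 2.94% lower under rFGF1 WT, and 3.37% and 2.89% under rFGF1 ΔHBS. At 2-fold or more, 1.01% and 0.899% passed. How these marker calls fared in other fits is not given here. Endothelial genes, with *Ehd3* alone of 7 at or above 1, summed to 1.61 FPKM in the second rFGF1 WT library, where *Ehd3* was at 1.06, and to between 3.52 and 3.92 in the other 5. Of the 6 fibroblast genes 1 was at or above 1. Fibroblast genes summed to 4.36 and 4.76 FPKM in HG, 3.20 and 3.17 under rFGF1 WT and 3.40 and 3.50 under rFGF1 ΔHBS, led by *Col1a1*. In bulk RNA fewer cells of a type and less RNA per cell cannot be told apart, and the part of these shifts in the results was not tested.

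TIMPs bind the active site of matrix metalloproteinases (MMPs), and *Timp3* differs in being held in the matrix and in also blocking ADAM17 and ADAMTS proteases. *Reck* is a membrane-anchored protein that restrains several MMPs. MMP2 and MMP9 are gelatinases that cut the type IV collagen of basement membranes, MMP14 is a membrane-bound MMP that activates MMP2, and ADAM10 and ADAM17 are sheddases that release the outer parts of membrane proteins such as Notch, TNF and EGF receptor ligands. In the glomerulus the basement membrane is made and maintained by podocytes and endothelial cells.

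*Timp3* stood at 48.1 and 47.4 FPKM in HG, at 8.13 and 8.21 under rFGF1 WT, and at 44.8 and 45.5 under rFGF1 ΔHBS. The rFGF1 WT libraries were low, and the rFGF1 ΔHBS libraries lay just under HG, without overlap between any groups. The means were 47.8 ± 0.467 FPKM in HG, 8.17 ± 0.0605 under rFGF1 WT and 45.1 ± 0.485 under rFGF1 ΔHBS (SD, n = 2). As log2(FPKM + 1), a scale that shrinks differences of low genes, the difference was −2.41 for rFGF1 WT against HG (SE 0.0445, 95% interval −2.53 to −2.29), −0.08 for rFGF1 ΔHBS against HG (SE 0.0445, −0.20 to 0.04) and 2.33 for rFGF1 ΔHBS against rFGF1 WT (SE 0.0445, 2.21 to 2.45). The *Timp3* gene is at chr10:86300372-86349506 on the plus strand (GRCm38) and lies within *Syn3* on the opposite strand, whose locus stayed between 0.227 and 0.344 FPKM. Whether strand was kept is not given in the sources used here.

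*Timp2*, a soluble TIMP that also takes part in the activation of MMP2, had the highest level of the group, between 138 and 151 FPKM in the 6 libraries. Its means were 150.1 ± 1.54 in HG, 143 ± 3.11 under rFGF1 WT and 139 ± 1.13 under rFGF1 ΔHBS, and its log2 differences from HG were −0.07 (SE 0.0396) and −0.11 (SE 0.0396). *Timp1*, another secreted inhibitor, lay between 7.04 and 8.37 FPKM with all groups overlapping. *Timp4* was near 0, at most 0.0258 FPKM. As a share of all TIMP FPKM, *Timp2* held 73.1% ± 0.216 in HG, 89.9% ± 0.194 under rFGF1 WT and 72.4% ± 0.529 under rFGF1 ΔHBS, and *Timp3* held 23.3% ± 0.0800, 5.14% ± 0.0848 and 23.5% ± 0.272 (SD, n = 2). Summed TIMP FPKM were 205.4 ± 2.71, 159 ± 3.81 and 192 ± 0.156. *Reck* was the lowest of the 4 listed inhibitors, at 2.27 and 2.49 FPKM in HG, 1.39 and 1.42 under rFGF1 WT and 1.67 and 1.44 under rFGF1 ΔHBS, below HG in all 4 treated libraries. Its log2 differences from HG were −0.49 (SE 0.0913, 95% interval −0.73 to −0.24) and −0.41 (SE 0.0913, −0.65 to −0.16). Neither was called (limma adjusted p = 0.0619 and 0.0846), and the intervals are a description, as these comparisons chose the gene.

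*Mmp2*, a gelatinase, stood at 37.7 and 37.2 FPKM in HG, 46.0 and 40.5 under rFGF1 WT and 41.5 and 42.0 under rFGF1 ΔHBS. All 4 treated libraries were above HG, with log2 differences of 0.20 (SE 0.0733) and 0.16 (SE 0.0733). *Mmp14* lay between 8.89 and 9.83 FPKM with overlapping groups. *Mmp3*, stromelysin-1, was listed at 0 in 5 libraries and at 0.172 FPKM in 1 rFGF1 ΔHBS library. *Adam10* was between 43.5 and 44.9 FPKM in HG and between 38.0 and 41.4 in the treated libraries, and *Adam17* between 12.2 and 12.5 in HG and between 10.9 and 12.0 in the treated ones. The *Adam17* gene overlaps the end of *Iah1* on the other strand. *Iah1* had 13.5 and 15.2 FPKM in HG, 12.4 and 9.83 under rFGF1 WT and 9.35 and 10.0 under rFGF1 ΔHBS, also lower in the treated libraries. Whether its fragments entered the *Adam17* values was not tested.

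*Adamts1*, a secreted protease of matrix proteoglycans, stood at 88.9 and 91.9 FPKM in HG, at 58.3 and 58.9 under rFGF1 WT and at 62.3 and 30.8 under rFGF1 ΔHBS. Its rFGF1 ΔHBS libraries differed from each other more than those of any other of the 9 genes (46.5 ± 22.2, SD, n = 2), and all 4 treated libraries were below HG. The log2 difference from HG was −0.62 under rFGF1 WT (SE 0.338, 95% interval −1.53 to 0.29) and −1.03 under rFGF1 ΔHBS (SE 0.338, −1.94 to −0.12). Without the first rFGF1 ΔHBS library the latter was −1.52, and without the second −0.53. Between rFGF1 ΔHBS and rFGF1 WT the difference was −0.41, and it changed sign with the library left out, from −0.91 without the first rFGF1 ΔHBS library to 0.09 without the second.

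**Figure D1:**
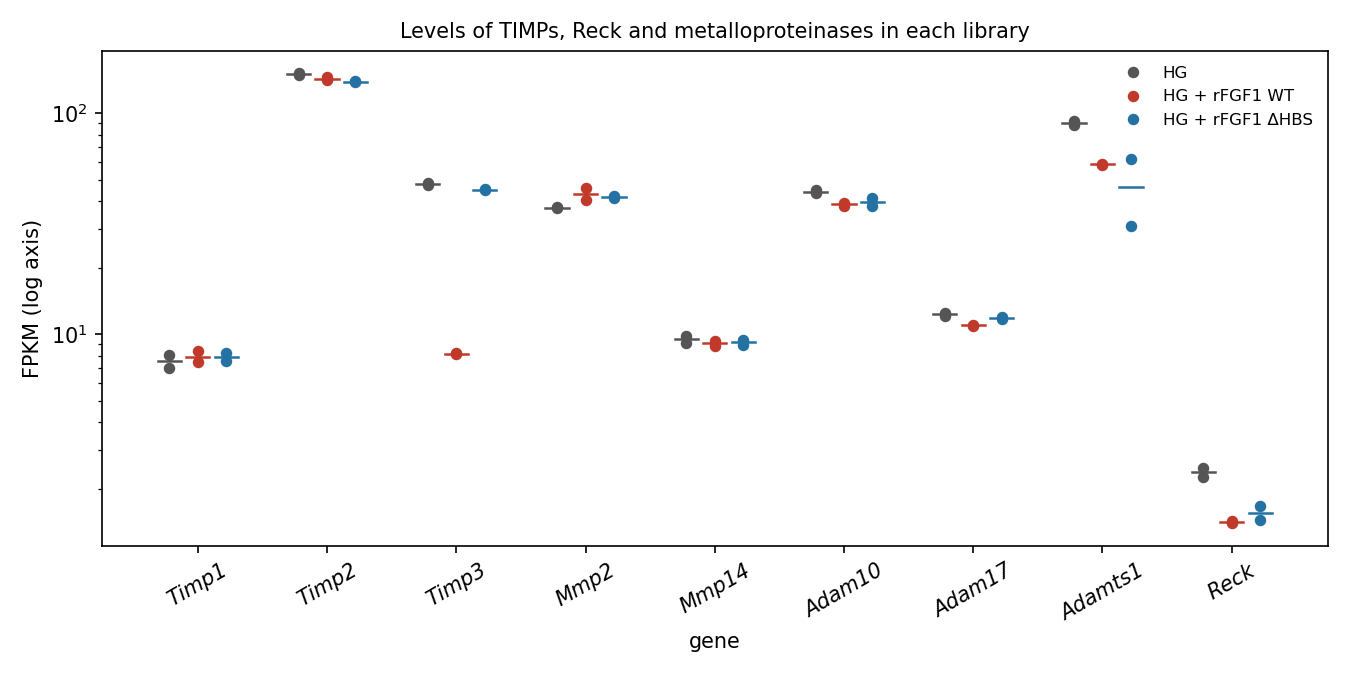
FPKM (log axis) of the 9 genes with a mean of at least 1 FPKM in each library of HG alone, the wild-type protein (WT) and the mutant (ΔHBS); each point is 1 library and each bar the mean of 2. *Timp3* is at 8.13 and 8.21 with rFGF1 WT against 44.8 to 48.1 in the other 4 libraries, and the 2 points of *Adamts1* with rFGF1 ΔHBS lie at 62.3 and 30.8.

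By mean level, the order in HG was *Timp2*, *Adamts1*, *Timp3*, *Adam10*, *Mmp2*, *Adam17*, *Mmp14*, *Timp1*, *Reck* and *Mmp3*, and no neighbours overlapped in their libraries. With rFGF1 WT *Timp3* moved from the third to the seventh place, where its libraries overlapped those of *Timp1* (7.48 and 8.37 FPKM). With rFGF1 ΔHBS it was again in the third place, at 45.1 FPKM, with *Adamts1* second at 46.5 and overlapping it.

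Under limma with Benjamini-Hochberg adjustment over all 10562 loci, 1 of the 9 tested genes was called at an adjusted p of 0.05 for rFGF1 WT against HG, *Timp3*, which was lower. Across all loci, 3.26% were called higher and 2.94% lower in that comparison, and 1.01% passed at 2-fold or more, as *Timp3* did. Of the 9 genes 5 had an unadjusted p under 0.05, against 24.8% of all loci. For rFGF1 ΔHBS against HG 0 of the 9 were called, against 3.37% of all loci higher, 2.89% lower and 0.899% at 2-fold, and 3 of the 9 had an unadjusted p under 0.05, against 24.9% of all loci. For rFGF1 ΔHBS against rFGF1 WT *Timp3* was called higher, against 0.294% of all loci higher, 0.256% lower and 0.35% at 2-fold. With the first rFGF1 ΔHBS library left out, *Adamts1* was called too in all 3 comparisons, and with the second left out in that of rFGF1 WT against HG. As these contrasts chose the genes, none of these calls is a test of the 9 genes. Nothing is read from the calls, the unadjusted p-values or the counts.

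The other genes of the family were taken by symbol (further *Mmp*, *Adam*, *Adamts* and *Adamtsl* genes, *Timp4* and related enzymes), 66 in all, of which 18 reached a mean of 1 FPKM. With rFGF1 WT 1 of the 18 was called higher and 3 lower, and under rFGF1 ΔHBS 1 higher and 2 lower, beside 3.26%, 2.94%, 3.37% and 2.89% of all loci. Their median log2 difference from HG was −0.09 under rFGF1 WT and −0.05 under rFGF1 ΔHBS, where that of all loci was −0.04 and −0.04. Between rFGF1 ΔHBS and rFGF1 WT limma called 0 of the 18, beside 0.294% of all loci called higher and 0.256% lower. There 1 of the 18 had an unadjusted limma p under 0.05, against 4.87% of all loci. Against HG such a p was held by 7 under rFGF1 WT and 8 under rFGF1 ΔHBS, beside 24.8% and 24.9% of all loci.

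*Mmp9*, the gelatinase that is known for its induction in injury, rose from 1.21 and 1.17 FPKM in HG to 2.92 and 3.15 under rFGF1 WT and 2.86 and 3.50 under rFGF1 ΔHBS. The log2 differences were 0.88 (SE 0.105, limma with Benjamini-Hochberg adjusted p = 0.0251) and 0.93 (SE 0.105, adjusted p = 0.0231). *Mmp11*, stromelysin-3, fell from 27.4 and 26.4 FPKM to 17.6 and 16.2 under rFGF1 WT and 16.2 and 14.7 under rFGF1 ΔHBS, by 0.64 and 0.76 on the log2 scale (SE 0.0773, limma adjusted p = 0.0253 and 0.0205). *Mme*, the membrane enzyme neprilysin that degrades small peptides, fell from 25.8 and 23.7 FPKM to 15.2 and 15.1 under rFGF1 WT and to 16.9 and 14.1 under rFGF1 ΔHBS (log2 difference −0.67 and −0.65, limma adjusted p = 0.0435 and 0.0463). *Mmp15*, a membrane-bound MMP, fell from 4.95 and 5.13 FPKM to 2.59 and 2.32 under rFGF1 WT (log2 difference −0.81, SE 0.0735, limma adjusted p = 0.0166). With rFGF1 ΔHBS *Mmp15* stood at 3.95 and 3.84 FPKM (log2 difference from HG −0.30, limma adjusted p = 0.0962), and between the proteins the difference was 0.50 (SE 0.0735, limma adjusted p = 0.187). The rest of the 18, among them *Adam9* at 30.3 to 40.1 FPKM, *Bmp1* at 32.0 to 40.1 and *Adam15* at 25.5 to 28.7, were not called in either comparison with HG. Leaving out any 1 of the 6 libraries ended each of these calls, with limma adjusted p from 0.0525 to 0.158 for *Mme* and from 0.0511 to 0.105 for *Mmp9* under rFGF1 WT. In these fits the log2 difference of *Mmp9* ran from 0.84 to 0.92 under rFGF1 WT and from 0.82 to 1.04 under rFGF1 ΔHBS, and that of *Mme* from −0.73 to −0.61 and from −0.77 to −0.52. The 4 libraries compared, fitted alone, and a replicate block also left none of them called. With no filter the calls of *Mmp9* and *Mme* ended, and median-ratio scaling ended that of *Mme* under rFGF1 ΔHBS. Across all loci, calls for rFGF1 ΔHBS against HG went from 661 to 189 with the 4 libraries and to 39 with the block. They were 386 with no filter and 653 with median-ratio scaling. Calls across all loci for rFGF1 WT against HG went from 654 to between 134 and 195 with 1 library left out, and were 170 with the 4 libraries, 41 with the block, 407 with no filter and 645 with median-ratio scaling.

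**Figure D2:**
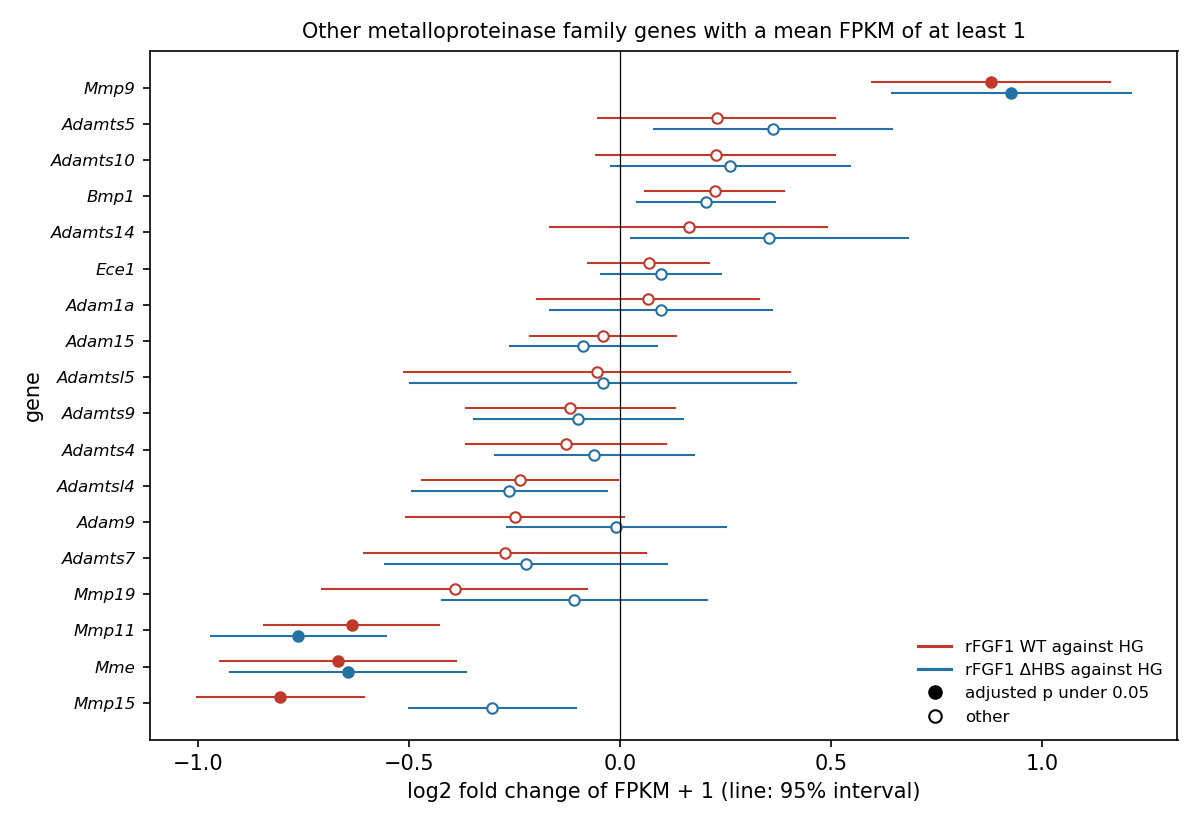
Log2 fold change of FPKM + 1 against HG (horizontal axis) for the 18 other family genes with a mean of at least 1 FPKM, for both proteins; lines are 95% intervals and filled points have an adjusted p under 0.05. *Mmp9* stands at 0.88 and 0.93, and *Mmp11*, *Mme* and *Mmp15* are below 0.

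*Adam1a* shares its locus with *Mapkapk5* and *Gm42878*, so its 3.80 to 4.63 FPKM cannot be assigned to it alone. *Adam12*, a protease of the cell surface chosen here after its values were seen, was below the limit of 1 FPKM: 0.238 and 0.302 in HG, 1.45 and 0.846 under rFGF1 WT, and 1.60 and 1.16 under rFGF1 ΔHBS. Without the limit its log2 differences from HG were 0.75 and 0.90 (SE 0.188, limma adjusted p = 0.186 and 0.136).

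Proteins that activate metalloproteinases or carry them to the surface were 17 genes, 15 tested. Of these 1 rose and 1 fell with each protein, beside 3.26% and 2.94% of all loci for rFGF1 WT against HG and 3.37% and 2.89% for the mutant. *Rhbdf1*, iRhom1, which escorts ADAM17, rose from 19.5 and 19.6 FPKM to 29.3 and 28.3 under rFGF1 WT and 26.3 and 27.3 under rFGF1 ΔHBS (log2 difference 0.54 and 0.43, limma adjusted p = 0.0168 and 0.0235). *Tspan5*, a tetraspanin partner of ADAM10, fell from 18.4 and 18.5 FPKM to 14.8 and 14.9 under rFGF1 WT and 14.8 and 14.6 under rFGF1 ΔHBS (−0.30 and −0.31, limma adjusted p = 0.0455 and 0.0409). The median log2 difference of the list was 0.05 under rFGF1 WT and 0.02 under rFGF1 ΔHBS, and the most abundant gene, *Bsg* at 204 to 264 FPKM, was not called. In this list *Itgb3* reached the limit of 1 FPKM only through the treated groups, so its place in the median is tied to the filter. Of 15 genes of clearance and other partners, 14 were in the table and 6 tested, and 1, *Thbs1*, was called higher, beside 3.26% and 3.37% of all loci (128 and 133 FPKM to 177 and 180 under rFGF1 WT and 176 and 188 under rFGF1 ΔHBS, limma adjusted p = 0.0244 and 0.0225), and the median log2 difference of the list was −0.03 and −0.11.

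The list of 28 surface substrates of ADAM10 or ADAM17 also holds *Egfr*, the receptor for ligands that they release. Of the 28, 20 were tested, and 4 rose and 1 fell with each protein. The shares of all loci were 3.26% and 2.94% for rFGF1 WT against HG and 3.37% and 2.89% for the mutant. *Egfr*, *Met*, *Sdc4* and *Tnfrsf1b* rose, with log2 differences of 0.45 to 0.55 under rFGF1 WT and 0.51 to 0.61 under rFGF1 ΔHBS. *Sdc4*, a heparan sulfate proteoglycan, went from 77.5 and 84.0 FPKM to 123 and 115 under rFGF1 WT and 115 and 122 under rFGF1 ΔHBS (limma adjusted p = 0.0291 and 0.0302). *Vcam1*, an adhesion molecule, fell from 6.04 and 6.20 to 4.52 and 4.32 and to 4.40 and 4.35 FPKM (limma adjusted p = 0.0414 and 0.0376). *App*, the most abundant at 186 to 222 FPKM, was not called (limma adjusted p = 0.0906 and 0.0691). The median log2 difference was 0.24 under rFGF1 WT and 0.10 under rFGF1 ΔHBS, beside −0.04 for all loci in both. Of the 20, 12 were above 0 and 8 below under rFGF1 WT, and 10 and 10 under rFGF1 ΔHBS. *Il6ra* and *Cxcl16* reached the limit of 1 FPKM only through the treated groups, and *Alcam* only through HG. These medians are therefore partly tied to the filter, and nothing is read from them.

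Of 27 matrix substrates, 16 were tested. With rFGF1 WT 2 rose and 2 fell, beside 3.26% and 2.94% of all loci, and under rFGF1 ΔHBS 2 rose and 1 fell, beside 3.37% and 2.89%. *Spp1*, osteopontin, a matrix protein that MMPs cut, rose from 18.7 and 17.8 FPKM to 83.4 and 81.8 under rFGF1 WT and 93.6 and 94.0 under rFGF1 ΔHBS (log2 difference 2.12 and 2.30, SE 0.0477, limma adjusted p = 0.00102 and 0.00106). Its locus also holds *Gm42793*, so these values cannot be assigned to *Spp1* alone. *Fn1*, fibronectin, rose from 116 and 121 FPKM to 150 and 152 under rFGF1 WT and 152 and 164 under rFGF1 ΔHBS (limma adjusted p = 0.0439 and 0.0302). The paper reports from real-time PCR that rFGF1 ΔHBS lowered profibrotic mRNA in podocytes under HG, with *Fn1* and *Acta2* among the genes measured. The direction of *Fn1* here was the opposite, as was that of the mean of *Acta2*, which was not called. The cause was not tested. *Nid2*, a basement membrane linker, stood at 2.49 and 2.87 FPKM in HG, 0.736 and 1.03 under rFGF1 WT and 0.667 and 0.903 under rFGF1 ΔHBS and was counted as lower (limma adjusted p = 0.0355 and 0.0302). It passed the limit of 1 FPKM only through its HG libraries, so the direction of these calls, of which the second is the 1 lower call of the list under rFGF1 ΔHBS, is tied to the filter, and without the filter both ended. *Tnc*, tenascin C, fell under rFGF1 WT from 51.8 and 54.1 to 42.0 and 42.1 FPKM (limma adjusted p = 0.0433) and stood at 43.8 and 45.9 under rFGF1 ΔHBS (adjusted p = 0.0783). The list's median log2 difference was −0.10 under rFGF1 WT and −0.05 under rFGF1 ΔHBS. Of all 12 and 11 calls in these 4 lists, *Spp1* was the 1 called in every fit that left out 1 library, and the other 11 and 10 were called in 0 of them. In the fits that left out 1 library, the log2 difference under rFGF1 WT ran from 0.51 to 0.56 for *Rhbdf1* and from 0.47 to 0.55 for *Met*. It ran from 0.39 to 0.52 for *Egfr* and from −0.42 to −0.37 for *Vcam1*. Apart from *Spp1*, none of the called list genes was called with only the 4 libraries compared or with a replicate block. With no filter the calls of *Tspan5*, *Thbs1*, *Sdc4*, *Vcam1*, *Fn1* and *Nid2* ended in both comparisons and those of *Egfr* and *Tnc* under rFGF1 WT. Another scaling ended the calls of *Tspan5* and *Fn1* in both comparisons and those of *Thbs1* and *Tnc* under rFGF1 WT. No gene of the 4 lists was called by limma between rFGF1 ΔHBS and rFGF1 WT, beside 0.294% of all loci called higher and 0.256% lower. There 1 of the 16 matrix genes had an unadjusted limma p under 0.05, with 0 in each of the other lists and 4.87% of all loci. Against HG, such a p was held under rFGF1 WT and rFGF1 ΔHBS by 12 and 13 of the 20 surface proteins and 8 and 7 matrix genes. In the lists of activation and of clearance it was held by 4 and 6 of 15 and by 2 and 1 of 6. The shares of all loci were 24.8% and 24.9%.

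Loci most like *Timp3* over the 6 libraries were sought among the 10272 tested loci above 0 in every library, by the root mean square difference of log2(FPKM + 1) after centring each gene. The nearest were *Rbbp9* (0.27; 20.7 and 21.7 FPKM in HG, 2.54 and 2.92 under rFGF1 WT, 12.5 and 12.8 under rFGF1 ΔHBS), *Ube2g1* (0.34) and *Chmp4c* (0.36). As they were chosen for this pattern, their order of groups is no result.

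Promoter windows from RefSeq (GRCm38.p6; 250 bases before to 50 after each start) matched 9 of the 10 genes, the one without a window being *Mmp2*. Both strands were searched for the AP-1 motif TGANTCA, the Ets motif CCGGAA, the GC box GGGCGG and the TATA box TATAAA. A GC box lay in the windows of 8 of the 9 genes, all but *Mmp3*, and in 35.7% of all 32851 windows. TGANTCA was found in 1 of the 9, *Mmp3* (7.81% of all), CCGGAA in 1, *Adam17* (14.9%), and TATAAA in *Mmp3* and *Adamts1* (13.6%). A match is a description of the letters, not of binding. The bases before the first annotated exon are printed for *Timp3*, and for *Mmp15*, the called family gene with a single window at the start of its annotated gene, in lower case with those motifs in capitals. *Mmp9* had no window, *Mme* had 3 and that of *Mmp11* lay inside its annotated gene. The printed bases lie at chr10:86300162-86300371 (plus strand) and chr8:95352046-95352267 (plus strand).
Timp3: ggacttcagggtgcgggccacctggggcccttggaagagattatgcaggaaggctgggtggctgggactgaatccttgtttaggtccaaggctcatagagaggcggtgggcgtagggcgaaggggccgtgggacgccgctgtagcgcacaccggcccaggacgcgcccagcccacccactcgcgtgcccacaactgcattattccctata
Mmp15: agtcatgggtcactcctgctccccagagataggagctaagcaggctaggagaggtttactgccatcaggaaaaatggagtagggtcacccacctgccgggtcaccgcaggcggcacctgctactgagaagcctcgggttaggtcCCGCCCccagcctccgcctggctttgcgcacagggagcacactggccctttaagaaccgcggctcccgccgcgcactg
The printed *Timp3* stretch held none of the 4 motifs, as the 2 GC boxes of its window lie in the bases not printed, and that of *Mmp15* 1 GC box, on the other strand (CCGCCC).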

How the data were processed

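Messenger RNA was measured in 6 libraries of MPCs, in 3 groups of 2 taken from the labels. The authors selected poly(A) RNA, read both fragment ends and deposited FPKM. Their processing notes name HISAT2 2.0, StringTie 1.3.0, Bowtie 0.12.2 and the build mm8, with no role stated, and the paper's methods name edgeR. The table has no coordinates. Positions came from GENCODE M21 (GRCm38), which held 99.6% of the table's Ensembl transcripts. A symbol found at more than 1 locus was read from its most abundant one.

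From the deposited FPKM, log2(FPKM + 1) of loci with a mean of at least 1 entered limma 3.58.1 under R 4.3.3 (lmFit, contrasts, eBayes with a trend), on 3 residual degrees of freedom, with Benjamini-Hochberg adjustment over all 10562 loci. The thresholds, an adjusted p of 0.05 and 2-fold, are those of the study methods, but 2-fold was taken here on log2(FPKM + 1), which low genes reach less easily. Under rFGF1 WT *Mmp9*, *Mmp15* and *Nid2* were under 2-fold on that scale, at ratios of mean FPKM to HG of 2.54, 0.488 and 0.329, and *Mmp9* also under rFGF1 ΔHBS at 2.67. Genes called but under 2-fold are named as called. Simulated data were used to check the fit. Of 200 loci given changes larger than those of most genes called here, 163 passed the threshold, as did 5 unchanged loci. Smaller changes were not simulated. Tables and plots used matplotlib 3.10.9, pandas 2.3.3, numpy 2.4.6 and Python 3.11.15.

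The genes and lists were chosen with earlier results of these data known. Named genes are the 10, every family or list gene with an adjusted p under 0.05 (at most the 12 with the largest log2 difference in a list), and the most abundant as examples. Alternatives changed the pseudocount (0.1), the filter (none, or 5 FPKM), the scaling (quantile or median-ratio), the libraries fitted (the 4 compared, or leaving out each in turn), the design (a replicate block) and the fold limit. They were added for list genes after the data were seen. Depth is not known from FPKM, and with 2 libraries a group precision rests on few degrees of freedom. The results of 2 marker genes are not reported here.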

Additional observations from a re-analysis of the deposited data

How the results depend on the processing

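Counts of genes past the threshold were 107 for rFGF1 WT against HG, 95 for rFGF1 ΔHBS against HG and 37 for rFGF1 ΔHBS against rFGF1 WT. They became 69 and 18 for the first and the last with a filter at 5 FPKM, which tests 6954 loci, 151 for the second at a pseudocount of 0.1, and 654, 661 and 58 with no fold limit. Leaving out each library in turn gave 43 to 103 for rFGF1 ΔHBS against rFGF1 WT. The same fits called 1 to 2 of the 9 genes for rFGF1 WT against HG, 0 to 1 for rFGF1 ΔHBS against HG and 1 to 2 for rFGF1 ΔHBS against rFGF1 WT, *Adamts1* being the gene added, as it was when only the 4 libraries compared were fitted (2 for rFGF1 WT against HG). The cause was not tested, and as these contrasts chose the 9 genes their counts support nothing.

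Calls among the other family genes were 4 for rFGF1 WT and 3 for rFGF1 ΔHBS against HG. With no filter they were 2 and 1, with a filter at 5 FPKM 2 for rFGF1 WT, where *Mmp9* and *Mmp15* lay under the filter and were not tested, and 0 in both with only the 4 libraries compared and in all fits that left out 1 library (0 to 0), where fewer libraries leave fewer degrees of freedom. Each fit of that kind assumes that a lone library varies like the others. The direction of each called gene held in every alternative. Median-ratio scaling moved the share of higher calls for rFGF1 WT against HG from 52.6% to 63.6%. It was 67.2% and 66.5% without an HG library and 37.6% and 38.5% without an rFGF1 WT library, so that most calls were then lower. For rFGF1 ΔHBS against HG it went from 53.9% to 68.6% and 63.5% without an HG library, and to 40.8% and 35.3% without an rFGF1 ΔHBS library. Between the proteins it went from 53.4% to 69.2% and 67.6% without an rFGF1 WT library, and to 37.2% and 32.9% without an rFGF1 ΔHBS library.

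The replicate numbers did not pair the libraries: deviations from group means correlated at −0.02, 0.10 and −0.05 between groups. With the replicate block the counts past the threshold were 39, 36 and 6, with 0 and 0 family genes called against HG.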
